A study of Homo sapiens with 24 samples.

Results

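The WNT module analysed here holds 40 genes of the WNT/beta-catenin pathway in SW480 and SW620 colon cancer cells, out of 33382 genes listed in each expression table. The members were chosen by gene symbol from their place in the pathway, with earlier results of these data known, and each was found through its Ensembl identifier. They fall into 5 classes, namely 8 ligand and ligand secretion genes, 10 Frizzled receptors, 5 co-receptor and Dishevelled genes, 8 genes of the destruction complex and beta-catenin, and 9 genes of the TCF/LEF factors with their co-activators and co-repressors. All 40 passed the filter on low counts and were among the 15302 genes tested.

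WNT proteins are lipid-modified secreted ligands that bind a Frizzled receptor together with the co-receptor LRP5 or LRP6, which recruits a Dishevelled protein and holds back the destruction complex of AXIN, APC, casein kinase 1 and GSK3. Beta-catenin, which that complex otherwise marks for degradation, then accumulates, enters the nucleus and joins TCF/LEF factors at target genes. In the intestine this pathway maintains the stem cells of the crypt, and most colorectal cancers carry a mutation in APC or in the beta-catenin gene, so that the level of beta-catenin mRNA need not follow the level of the protein.

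SW480 was established from a primary colon adenocarcinoma and SW620 from a lymph node metastasis of the same patient. Each line was infected with lentivirus carrying the catalytic domain of the DNA dioxygenase TET2 (Tet2CD) or an empty vector, and infected cells were selected with 5 µg/ml puromycin, so vector cells also went through infection and selection and each group is a selected cell population. Vector and Tet2CD cells of both lines then received DMSO, 4 ng/ml TGFB1, or 1 µM RepSox, which blocks the type I TGF-beta receptor kinase, for 24 h per the labels. The study's own text describes the TGF-beta treatment with other ligands and another dose, and gives a longer duration for both TGF-beta and RepSox. The exact treatment behind the TGFB1 libraries and the duration behind the RepSox libraries are therefore uncertain, and the labels are followed here. RNA-seq was carried out on 2 libraries for each of the 12 groups, 24 in all. Nothing in the labels ties the 2 libraries of a group to separate cultures. The p-values therefore reflect the spread between libraries alone, and that spread may be technical.

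Depth was 2146123 to 4410567 counts per library, with a median of 3653712. TET2 levels in CPM (a count scaled to the library's total) were 10.3 to 25.2 in vector libraries, 207 to 2820 in SW480 Tet2CD libraries and 694 to 1330 in SW620 Tet2CD libraries. The 3 SW480 Tet2CD libraries numbered 1 (1 under each treatment) stood apart, with 10.9% to 16.1% of counts on ribosomal protein genes against 6.18% to 10.0% in the other 21. Counts of members past a test that rest on them are therefore also given without them. Of 9 colorectal epithelial markers, 6 exceeded 1 CPM in the median SW480 library and 8 in the median SW620 library. EPCAM, KRT8, KRT18, KRT19, CDX2 and VIL1 were expressed in both, whereas the colonic markers KRT20, CDX1 and CDH17 had medians of 0.116, 0.124 and 0 CPM in SW480, and CDX1 had a median of 0 in SW620. Summed blood markers reached at most 7.87 CPM, endothelial markers 18.8 CPM and fibroblast markers 39.8 CPM, against 7110 CPM or more for the epithelial markers. In bulk RNA, fewer cells that express a gene and less RNA per cell cannot be told apart.

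TPM values, which are scaled to transcript length as well as to the library's total, were used to rank the members of each family by level within a line. FZD10 took the largest share of the summed Frizzled TPM in each SW620 group, with a median of 52.2% over the 12 SW620 libraries (range 48.2% to 66%). In SW480 its share was 2.71% (0.176% to 11.9%), and no receptor held a majority there, since FZD2 (median share 21.7%), FZD6 (19.5%) and FZD7 (18.3%) came first with ranges that overlapped. The summed Frizzled level itself was of like size, with a median of 70.0 TPM in SW480 (27.4 to 84.5) and 60.7 TPM in SW620 (50.5 to 70.8). Among the TCF/LEF factors, TCF7 held 51.2% and LEF1 34.1% of the summed TPM in SW480, whereas TCF7L2 held 65.1% (58.4% to 72.6%) and TCF7 29.3% in SW620. TCF7L2 held 8.56% in SW480 (3.91% to 12.5%), and LEF1 held 1.27% in SW620 (0.55% to 5.03%). The 6 member WNT ligands summed to a median of 187 TPM in SW480 (145 to 233), of which WNT6 held 54.5%, and to 21.0 TPM in SW620 (14.8 to 36.4), where WNT11 (29.5%), WNT3 (22.4%) and WNT7B (20.6%) had the highest median shares and overlapping ranges.

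**Figure D1:**
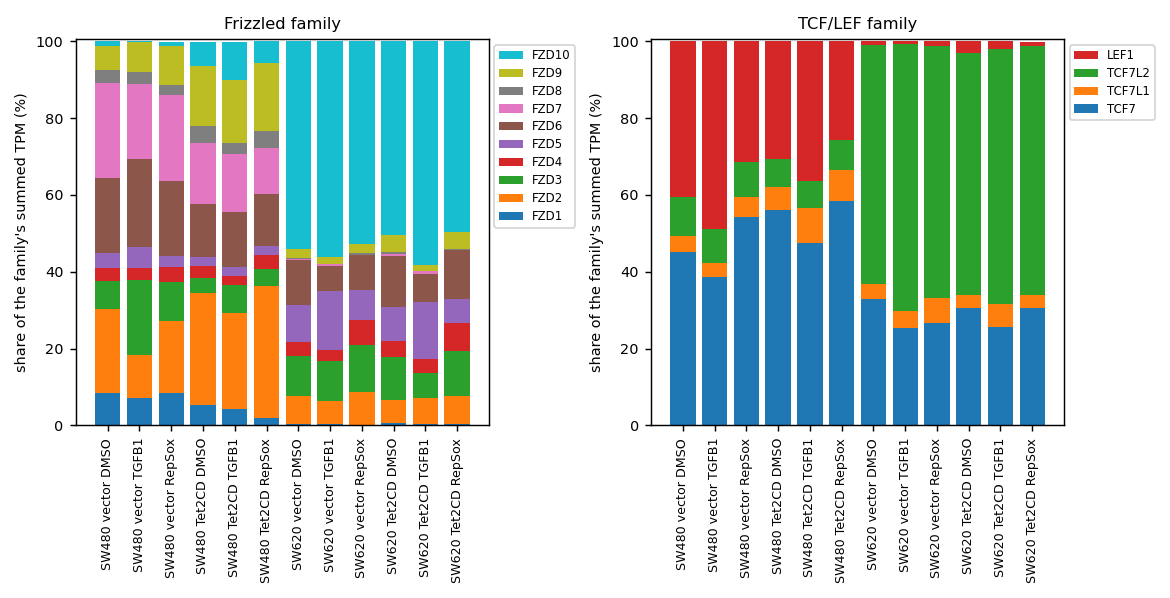
Share of each gene (colours) in the summed TPM of the Frizzled family (left) and of the TCF/LEF family (right), in percent, as the median of the 2 libraries of each of the 12 groups on the x axis. FZD10 and TCF7L2 take the largest part of each SW620 bar, while the SW480 bars are divided among FZD2, FZD6, FZD7 and others, and between TCF7 and LEF1.

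The first comparison asked how the lines differ in the module. Over all 24 libraries, irrespective of construct and treatment, 15 members had a higher CPM in every SW480 library than in every SW620 library, against 11.4% of all genes tested, and 7 had a lower CPM, against 11.0%. The 15 were WNT5A, WNT6, WNT10A, WLS, FZD1, FZD2, FZD7, FZD8, FZD9, GSK3A, CTNNB1, TCF7, TCF7L1, LEF1 and TLE1, and the 7 were WNT7B, FZD5, FZD10, LRP5, LRP6, TCF7L2 and BCL9. On the TPM scale 9 and 5 of these members stayed apart (8.33% and 8.89% of all genes), while WNT10A, WLS, FZD1, GSK3A, CTNNB1, TCF7L1, FZD5 and BCL9 overlapped. WNT10A, WLS, FZD1, GSK3A, CTNNB1 and TCF7L1 overlapped only through SW480 Tet2CD libraries numbered 1. BCL9 overlapped in vector libraries as well. FZD5 overlapped through an SW480 vector TGFB1 library (4.1 TPM) and the SW620 Tet2CD RepSox libraries (3.64 and 3.81 TPM). Its vector libraries did not overlap. Separated genes were not counted without the libraries numbered 1. In vector cells under DMSO, 29 of 40 members passed the test, 19 higher in SW480 (background 17.8%) and 10 lower (background 16.8%), where 34.5% of all genes passed. In Tet2CD cells 27 passed, 18 higher (background 24.0%) and 9 lower (background 22.7%), where 46.7% of all genes passed. The median log2 fold change of the 40 members was 0.52 in vector cells and 0.36 in Tet2CD cells, against -0.03 and 0.00 over all genes. In the absence of the 3 SW480 Tet2CD libraries numbered 1, 33 and 31 members passed in vector and Tet2CD cells, where 51.4% and 50.2% of all genes did. All tests are edgeR quasi-likelihood tests in which a gene passes at a Benjamini-Hochberg adjusted p under 0.05 over the 15302 genes, and each log2 fold change is given with its standard error (SE).

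**Figure D2:**
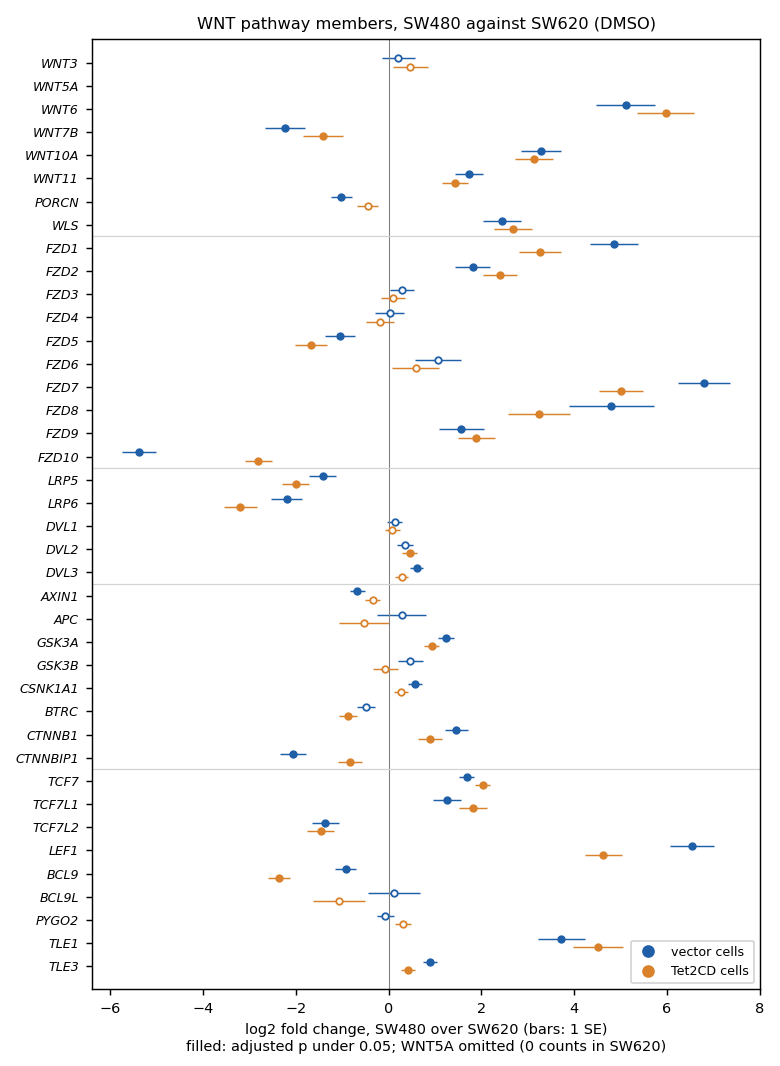
Log2 fold change of CPM between SW480 and SW620 under DMSO for 39 members, grouped by class, in vector (blue) and Tet2CD cells (orange), with bars of 1 SE and filled symbols where the adjusted p was under 0.05. WNT5A is omitted because SW620 had 0 counts, and FZD7, FZD8 and TLE1 rest on 1 to 3 SW620 vector counts. LEF1 and FZD7 lie farthest to the right (6.54 and 6.8 in vector cells) and FZD10 farthest to the left (-5.38).

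Among the ligand genes, WNT5A, which encodes a ligand best known for beta-catenin-independent signalling, had 72.8 and 82.7 CPM in the SW480 vector DMSO libraries and 0 in both SW620 libraries. Over all 12 libraries of SW620 it was at 0 in 10 and at 0.225 and 0.272 CPM in the others, and with the floor of 3 counts over the group SW480 was at least 175-fold higher in vector cells and at least 184-fold higher in Tet2CD cells. WNT6, a ligand of epithelia, had 90.2 and 89.6 CPM in SW480 and 2.79 and 2.35 CPM in SW620 (log2 fold change 5.11, SE 0.63, edgeR adjusted p = 1.07e-05). WNT10A, which activates the beta-catenin branch, had 35.8 and 35.6 CPM in SW480 and 4.33 and 2.93 CPM in SW620 (3.29, SE 0.43, edgeR adjusted p = 1.46e-05). These 3 ligands did not overlap between the lines in any library. WLS, the carrier that brings WNT proteins to the cell surface, was also higher in SW480 (2.44, SE 0.41), as was WNT11 (1.73, SE 0.31). In contrast, WNT7B, a ligand of the beta-catenin branch, had 1.47 and 1.79 CPM in SW480 and 6.81 and 8.8 CPM in SW620 (-2.23, SE 0.43, edgeR adjusted p = 0.000701). PORCN, the acyltransferase that attaches the lipid to WNT proteins, was lower in SW480 as well (-1.02, SE 0.23), and WNT3 did not pass (0.21).

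WNT6 (ENSG00000115596, GRCh38 chr2:218859821-218874233, plus strand) and WNT10A (ENSG00000135925, chr2:218880363-218899581, plus strand) are neighbours separated by 6129 bases. The promoters of these genes and of AXIN1 are printed because these members differed between lines or treatments and had a matched promoter. Each is the RefSeq window on GRCh38.p14 of 250 bases before to 50 bases after the transcription start, read 5′ to 3′ on the gene's strand, with CG dinucleotides, where TET enzymes act on methylated cytosine, in capitals. DNA methylation was not analysed here.
WNT6: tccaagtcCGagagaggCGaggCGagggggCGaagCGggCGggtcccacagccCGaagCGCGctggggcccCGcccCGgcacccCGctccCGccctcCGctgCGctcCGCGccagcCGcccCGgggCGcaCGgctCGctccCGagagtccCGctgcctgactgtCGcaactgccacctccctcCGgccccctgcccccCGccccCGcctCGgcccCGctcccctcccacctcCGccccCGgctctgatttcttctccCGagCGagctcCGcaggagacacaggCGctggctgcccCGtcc
WNT10A: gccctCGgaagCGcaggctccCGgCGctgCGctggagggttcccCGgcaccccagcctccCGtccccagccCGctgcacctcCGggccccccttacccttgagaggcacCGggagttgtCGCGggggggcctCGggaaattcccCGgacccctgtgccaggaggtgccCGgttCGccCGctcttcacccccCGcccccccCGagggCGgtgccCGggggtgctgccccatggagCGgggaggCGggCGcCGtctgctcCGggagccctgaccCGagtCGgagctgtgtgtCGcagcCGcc
AXIN1: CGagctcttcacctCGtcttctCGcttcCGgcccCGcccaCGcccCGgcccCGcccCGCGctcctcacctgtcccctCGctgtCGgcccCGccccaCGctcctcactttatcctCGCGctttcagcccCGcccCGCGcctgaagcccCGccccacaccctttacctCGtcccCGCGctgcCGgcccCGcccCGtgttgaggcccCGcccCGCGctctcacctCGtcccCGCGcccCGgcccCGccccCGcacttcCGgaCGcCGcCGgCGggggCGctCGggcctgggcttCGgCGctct

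The windows lie at chr2:218859555-218859854 (WNT6), chr2:218880602-218880901 (WNT10A) and chr16:352674-352973 on the minus strand (AXIN1). The RefSeq start was 16 bases before the 5′ end of the annotated gene for WNT6 and 50 bases before it for AXIN1, and 489 bases inside the gene for WNT10A. The windows held 37, 30 and 44 CG dinucleotides, in that order. RefSeq promoters were matched for 30 of the 40 members, with a start within 500 bases of the annotated 5′ end for 23 of them, and the 30 held 3 to 58 CG dinucleotides with a median of 32, against a median of 14 over 35116 promoters. The words CTTTGAA or CTTTGAT or CTTTGTA or CTTTGTT, which TCF/LEF factors recognise, were searched on both strands and were present in 1 of the 30 member windows (WNT3) and in 13.8% of all promoters. The SMAD word CAGACA, searched likewise, was present in 2 member windows (BCL9 and GSK3B) and in 16.9% of all promoters. None of the 3 printed windows held any of these words, and the words of the 2 searches were counted separately without regard to overlap. The RefSeq start of the WNT3 window lay 14462 bases inside the annotated gene.

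The Frizzled receptors split in direction. FZD7, a receptor known from intestinal stem cells, had 33.8 and 41.0 CPM in SW480 vector libraries and 0.309 and 0.293 CPM in SW620, which was 275 counts against 2 (ratio 125, 95% exact binomial interval 34.3 to 1040). FZD1 had 19.7 and 26.1 CPM in SW480 and 0.928 and 0.586 CPM in SW620 (log2 fold change 4.86, SE 0.52, edgeR adjusted p = 1.67e-06). FZD8 was at 37 counts against 1 (ratio 33.6, interval 5.67 to 1360), and FZD2 (1.81, SE 0.38) and FZD9 (1.57, SE 0.48) were also higher in SW480. Intervals of this kind cover counting error only. FZD10, a receptor with little expression in most adult tissues, had 1.76 and 1.02 CPM in SW480 vector libraries and 59.1 and 58.4 CPM in SW620 (-5.38, SE 0.37, edgeR adjusted p = 1.16e-08). FZD5 was lower in SW480 too (-1.05, SE 0.32, edgeR adjusted p = 0.017), but its call was lost whichever of the 4 libraries was left out. FZD3, FZD4 and FZD6 did not pass, with values of 0.28, 0.02 and 1.07 on the log2 scale.

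Both co-receptors were lower in SW480. LRP6 had 40.2 and 64.0 CPM in SW480 vector libraries and 234 and 247 CPM in SW620 (log2 fold change -2.2, SE 0.34, edgeR adjusted p = 7.89e-05). LRP5 had 126 and 150 CPM against 371 and 364 CPM (-1.42, SE 0.29, edgeR adjusted p = 0.000998). Their libraries did not overlap between the lines under any treatment. On the length-adjusted scale LRP5 was the more abundant co-receptor in both lines, with 88.6% of the pair's TPM in SW480 and 76.2% in SW620. Among the Dishevelled genes, which relay the signal from the receptor, DVL3 was slightly higher in SW480 (0.6, SE 0.14, edgeR adjusted p = 0.00395), while DVL1 (0.13) and DVL2 (0.36) did not pass in vector cells.

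CTNNB1, the gene of beta-catenin (ENSG00000168036), had 1270 and 1260 CPM in SW480 vector DMSO libraries and 443 and 478 CPM in SW620 (log2 fold change 1.46, SE 0.25, edgeR adjusted p = 0.000238). In Tet2CD cells it had 750 and 990 CPM against 469 and 471 CPM (0.89, SE 0.25, edgeR adjusted p = 0.00769), a call that was lost without SW480 Tet2CD DMSO library 2 or without SW620 Tet2CD DMSO library 1. On the TPM scale CTNNB1 ranged from 472 to 797 in the 6 SW480 vector libraries and from 208 to 247 over the 12 SW620 libraries. The SW480 Tet2CD libraries ranged from 139 to 516 TPM, so the lines overlapped on that scale. The lowest of these, 139 and 176 TPM, were the RepSox and TGFB1 libraries numbered 1.

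Of the other destruction complex genes, GSK3A, a kinase that phosphorylates beta-catenin, had 117 and 112 CPM in SW480 vector libraries and 45.8 and 51.0 CPM in SW620 (log2 fold change 1.24, SE 0.17, edgeR adjusted p = 1.98e-05). CSNK1A1, the priming kinase, was higher in SW480 by a smaller amount (0.56, SE 0.15). It shares 2886 exon bases with another annotated gene on the same strand. CTNNBIP1, which keeps beta-catenin from binding TCF/LEF factors, had 18.8 and 15.1 CPM in SW480 and 75.2 and 67.4 CPM in SW620 (-2.07, SE 0.28, edgeR adjusted p = 2.23e-05). AXIN1, the scaffold of the complex, was lower in SW480 (-0.68, SE 0.16, edgeR adjusted p = 0.00374), a call lost without SW620 vector DMSO library 2. It did not pass in Tet2CD cells (-0.34, SE 0.16, edgeR adjusted p = 0.0924) or in vector cells averaged over the 3 treatments (-0.19, SE 0.09, edgeR adjusted p = 0.0974). APC (0.28), GSK3B (0.47) and BTRC (-0.49), the ubiquitin ligase adaptor for beta-catenin, did not pass in vector cells.

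The nuclear members differed in which TCF/LEF factor was transcribed. LEF1 had 74.6 and 71.7 CPM in SW480 vector libraries and 0.619 and 0.88 CPM in SW620 (log2 fold change 6.54, SE 0.48, edgeR adjusted p = 2.4e-08). TCF7 had 142 and 136 CPM in SW480 and 41.2 and 45.7 CPM in SW620 (1.68, SE 0.16, edgeR adjusted p = 5.53e-07). TCF7 shares 210 exon bases with SKP1 on the opposite strand, which was also higher in SW480 (376 against 156 CPM), and no source used here gives the strandedness of the counting, so the part of SKP1 reads in the TCF7 value was not tested. TCF7L1, which acts mainly as a repressor, was higher in SW480 (1.26, SE 0.31). TCF7L2, the main TCF factor of the normal intestinal epithelium, went the other way, with 22.0 and 23.3 CPM in SW480 and 67.2 and 50.1 CPM in SW620 (-1.37, SE 0.29, edgeR adjusted p = 0.00144).

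Among co-factors, the co-repressor TLE1 was at 47 counts in SW480 vector libraries and 3 in SW620 (ratio 14.2, 95% exact binomial interval 4.58 to 71.5), and TLE3 was higher in SW480 (log2 fold change 0.9, SE 0.15). BCL9, a co-activator that binds beta-catenin, had 27.0 and 25.6 CPM in SW480 and 49.8 and 50.1 CPM in SW620 (-0.93, SE 0.22, edgeR adjusted p = 0.00359). The related co-activator BCL9L (0.11) and PYGO2 (-0.07), which BCL9 links to beta-catenin, did not pass. LEF1, TCF7, TCF7L1, TCF7L2, BCL9 and TLE3 kept their direction and passed in Tet2CD cells as well.

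The second comparison asked what Tet2CD changed. In SW480 under DMSO, 5 of 40 members passed, 2 higher (background 4.19%) and 3 lower (background 2.57%), where 6.76% of all genes passed. FZD10 had 8.63 and 7.7 CPM in Tet2CD libraries and 1.76 and 1.02 CPM in vector libraries (log2 fold change 2.53, SE 0.42, edgeR adjusted p = 0.00201). All 6 Tet2CD libraries of SW480 (4.24 to 18 CPM) lay above all 6 vector libraries (0.256 to 1.86 CPM), and all were below the lowest SW620 library (54.8 CPM). CTNNBIP1 had 47.9 and 32.8 CPM against 18.8 and 15.1 CPM (1.24, SE 0.28, edgeR adjusted p = 0.0154). BCL9 had 8.63 and 12.4 CPM against 27.0 and 25.6 CPM (-1.29, SE 0.24, edgeR adjusted p = 0.00501), and LRP6 had 17.7 and 24.3 CPM against 40.2 and 64.0 CPM (-1.3, SE 0.35, edgeR adjusted p = 0.0363). TLE3 fell by a smaller amount (-0.55, SE 0.15, edgeR adjusted p = 0.0412). For each of these 5 members the 2 Tet2CD and 2 vector libraries under DMSO did not overlap. The members were picked by the test on these same libraries, so this adds no support. The share of all genes without overlap is not given. CTNNB1 had a value of -0.54 (SE 0.25, edgeR adjusted p = 0.182).

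Without the 3 SW480 Tet2CD libraries numbered 1, 8 members passed in SW480, where 10.7% of all genes passed. They were the same 5 together with BCL9L (-0.69, SE 0.2), CTNNB1 (-0.37, SE 0.11, edgeR adjusted p = 0.0428) and PYGO2 (0.57, SE 0.18), and the Tet2CD group then held a single library assumed to vary like the other groups. When the SW480 libraries were fitted alone, 0 members passed, and FZD10 kept its size (2.53) with an edgeR adjusted p of 0.0535. The share of all genes that passed in that fit is not given. The calls of LRP6 and TLE3 were lost whichever of the 4 libraries was left out, that of CTNNBIP1 without either vector library or without Tet2CD library 1, that of FZD10 without SW480 vector library 2 and that of BCL9 without SW480 Tet2CD library 1. Averaged over the 3 treatments, 26 members passed, where 54.5% of all genes passed. Same-numbered SW480 Tet2CD libraries deviated together across treatments (correlation 0.655 to 0.758). They were therefore not independent, and the p-values of this average may be too small.

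In SW620, 0 of 40 members passed under DMSO with edgeR, where 0.0261% of all genes passed. DESeq2 also called 0, and 2 members, WNT11 (log2 fold change 0.86) and GSK3A (0.47), had an unadjusted p under 0.05, as did 416 of the 15302 genes tested. FZD10 had 59.6 and 54.8 CPM in Tet2CD libraries and 59.1 and 58.4 CPM in vector libraries (-0.04, SE 0.25), and CTNNB1 had a value of 0.03 (SE 0.25). The Tet2CD effect differed between the lines for 1 member, FZD10 (difference 2.57, SE 0.5, edgeR adjusted p = 0.0266), where 0.484% of all genes passed, and the call was lost whichever of the 8 libraries was left out. Without the 3 SW480 Tet2CD libraries numbered 1 the difference was 2.48 (SE 0.5, edgeR adjusted p = 0.0121) and BCL9 passed beside it (-1.25, SE 0.27), where 1.91% of all genes passed.

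**Figure D3:**
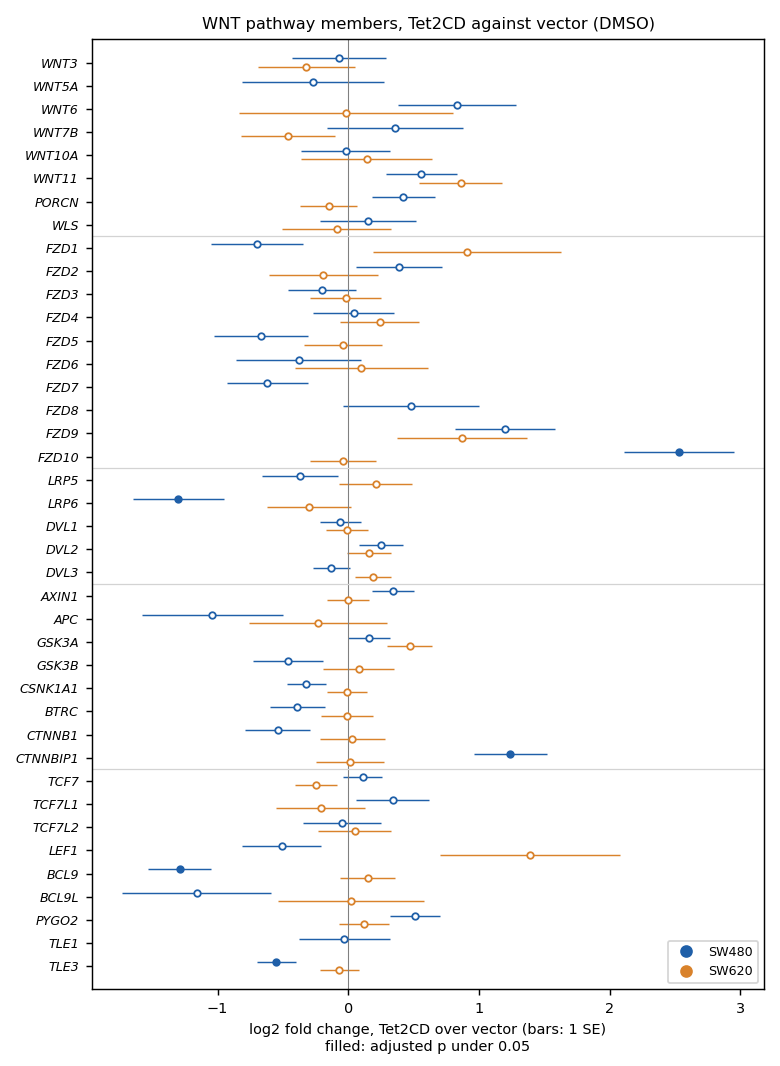
Log2 fold change of CPM between Tet2CD and vector cells under DMSO by class, in SW480 (blue) and SW620 (orange), with bars of 1 SE and filled symbols where the adjusted p was under 0.05. SW620 values of WNT5A, FZD7, FZD8 and TLE1 are omitted for counts of 3 or fewer in a group. The filled SW480 symbols are FZD10 at 2.53, CTNNBIP1 at 1.24, TLE3 at -0.55, BCL9 at -1.29 and LRP6 at -1.3, and no SW620 symbol is filled.

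The third comparison asked how the module answered TGFB1 and RepSox, with vector and Tet2CD cells of a line averaged (4 libraries against 4). Both treatments were compared with the same DMSO libraries. In SW620, TGFB1 raised 6 members and lowered 0, where 8.31% of all genes rose, 7.27% fell and 15.6% passed in either direction. For vector cells alone no such share is given, so the count of members there cannot be told apart from a change over all genes. The count was 0 in vector cells alone, and 14 without the 3 SW480 Tet2CD libraries numbered 1, where 35.6% of all genes passed on the same SW620 libraries. These were 11 higher and 3 lower, the 3 being FZD6 (-0.66, SE 0.18, edgeR adjusted p = 0.00643), CTNNBIP1 (-0.51, SE 0.14) and CTNNB1 (-0.18, SE 0.07, edgeR adjusted p = 0.0384). WNT10A had 9.55 and 11.9 CPM in vector cells and 6.52 and 20.7 CPM in Tet2CD cells under TGFB1, against 4.33, 2.93, 4.96 and 3.03 CPM under DMSO (log2 fold change 1.65, SE 0.31, edgeR adjusted p = 0.00179). FZD5 had 41.4, 41.2, 30.1 and 44.7 CPM under TGFB1 against 22.9, 20.2, 20.6 and 21.2 CPM under DMSO (0.89, SE 0.21, edgeR adjusted p = 0.00781). WNT7B had 16.6, 13.9, 12 and 9.49 CPM against 6.81, 8.8, 7.45 and 3.96 CPM (0.94, SE 0.24, edgeR adjusted p = 0.0133). In each of these 3 genes, 2 of them ligands and FZD5 a receptor, all 4 TGFB1 libraries lay above all 4 DMSO libraries. The same held for FZD3 (0.65, SE 0.18), CSNK1A1 (0.37, SE 0.11) and TLE3 (0.39, SE 0.11). These 6 members were called on the same libraries, so their separation adds no support. The calls of WNT10A and FZD5 were kept whichever of the 8 libraries was left out, that of WNT7B in 4 of 8, that of FZD3 in 3 and those of CSNK1A1 and TLE3 in 2 each. CTNNB1 had a value of -0.16 (SE 0.17, edgeR adjusted p = 0.605).

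RepSox changed 6 members in SW620, 2 higher (background 2.01%) and 4 lower (background 2.68%), where 4.69% of all genes passed. The count was 10 without the 3 SW480 Tet2CD libraries numbered 1, where 16.0% of all genes passed. AXIN1 had 47.8 and 58.5 CPM in vector cells and 55.7 and 53.6 CPM in Tet2CD cells under RepSox, against 93.8, 106, 99.5 and 100 CPM under DMSO (log2 fold change -0.89, SE 0.12, edgeR adjusted p = 0.000242). Of the members called, AXIN1 had the smallest p and was the one that also passed in vector cells alone. The share of all genes that passed for RepSox in vector cells alone is not given. WNT6 was at 0, 0, 0 and 0.251 CPM under RepSox against 2.79, 2.35, 2.98 and 2.1 CPM under DMSO, that is 1 count against 38 (ratio 37.4, 95% exact binomial interval 6.32 to 1520, edgeR adjusted p = 0.0247). Its neighbour WNT10A had 1.29, 2.84, 0.497 and 0.752 CPM against 4.33, 2.93, 4.96 and 3.03 CPM (-1.74, SE 0.45, edgeR adjusted p = 0.0364). Both ligands were lower in all 4 RepSox libraries than in all 4 DMSO libraries, at levels of few counts. They were called on these same libraries, so the separation adds no support. TCF7 also fell (-0.55, SE 0.12, edgeR adjusted p = 0.0113). With each of the 8 libraries left out in turn, the call of AXIN1 was kept in 8, that of TCF7 in 4, that of WNT6 in 3 and that of WNT10A in 2.

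WNT7B rose under RepSox, with 18, 23.1, 13.7 and 16.3 CPM (log2 fold change 1.39, SE 0.24, edgeR adjusted p = 0.00247), so it was higher than DMSO under both treatments in SW620, and the treatments did not pass against each other (-0.45, SE 0.22, edgeR adjusted p = 0.151). FZD4, the Frizzled receptor that also binds norrin, had 14.9, 20.2, 19.6 and 22.3 CPM under RepSox against 8.97, 8.5, 10.2 and 10.5 CPM under DMSO (1.01, SE 0.2, edgeR adjusted p = 0.00788). The call of WNT7B was kept whichever of the 8 libraries was left out, and that of FZD4 in 7, being lost without SW620 vector DMSO library 2. FZD4 shares 1399 exon bases with PRSS23 on the opposite strand, whose mean rose from 5.09 to 12.2 CPM in vector cells and from 3.74 to 6.37 CPM in Tet2CD cells, and the part of PRSS23 reads in the FZD4 value was not tested. CTNNB1 had a value of -0.04 (SE 0.17).

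In SW480 neither treatment gave a call among the members. TGFB1 called 0 of 40 with edgeR, where 1.05% of all genes passed, and DESeq2 called 1 (DVL1). With edgeR, 5 members had an unadjusted p under 0.05, as did 1967 of the 15302 genes tested. RepSox called 0 of 40 with edgeR and with DESeq2, where 0.0% of all genes passed with edgeR. An unadjusted p under 0.05 was seen for 2 members (FZD1 and BTRC) and for 433 of the 15302 genes tested. CTNNB1 had 1270 and 1260 CPM under DMSO and 845 and 844 CPM under TGFB1 in vector cells, whereas in Tet2CD cells the TGFB1 libraries had 544 and 924 CPM against 750 and 990 CPM, and averaged over constructs the value was -0.41 (SE 0.17, edgeR adjusted p = 0.314). WNT5A had 144 and 133 CPM under TGFB1 in vector cells against 72.8 and 82.7 CPM, and 48.9 and 152 CPM in Tet2CD cells against 46.3 and 82.0 CPM (0.74, SE 0.38, edgeR adjusted p = 0.466). In both genes the lower value of the Tet2CD pair was library 1. Without the 3 SW480 Tet2CD libraries numbered 1, TGFB1 raised WNT5A (0.86, SE 0.13, edgeR adjusted p = 0.00123) and lowered CTNNB1 (-0.34, SE 0.08, edgeR adjusted p = 0.013) and FZD2 (-0.71, SE 0.21), where 6.67% of all genes passed. RepSox gave CTNNB1 a value of 0.04 (SE 0.17) in SW480.

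**Figure D4:**
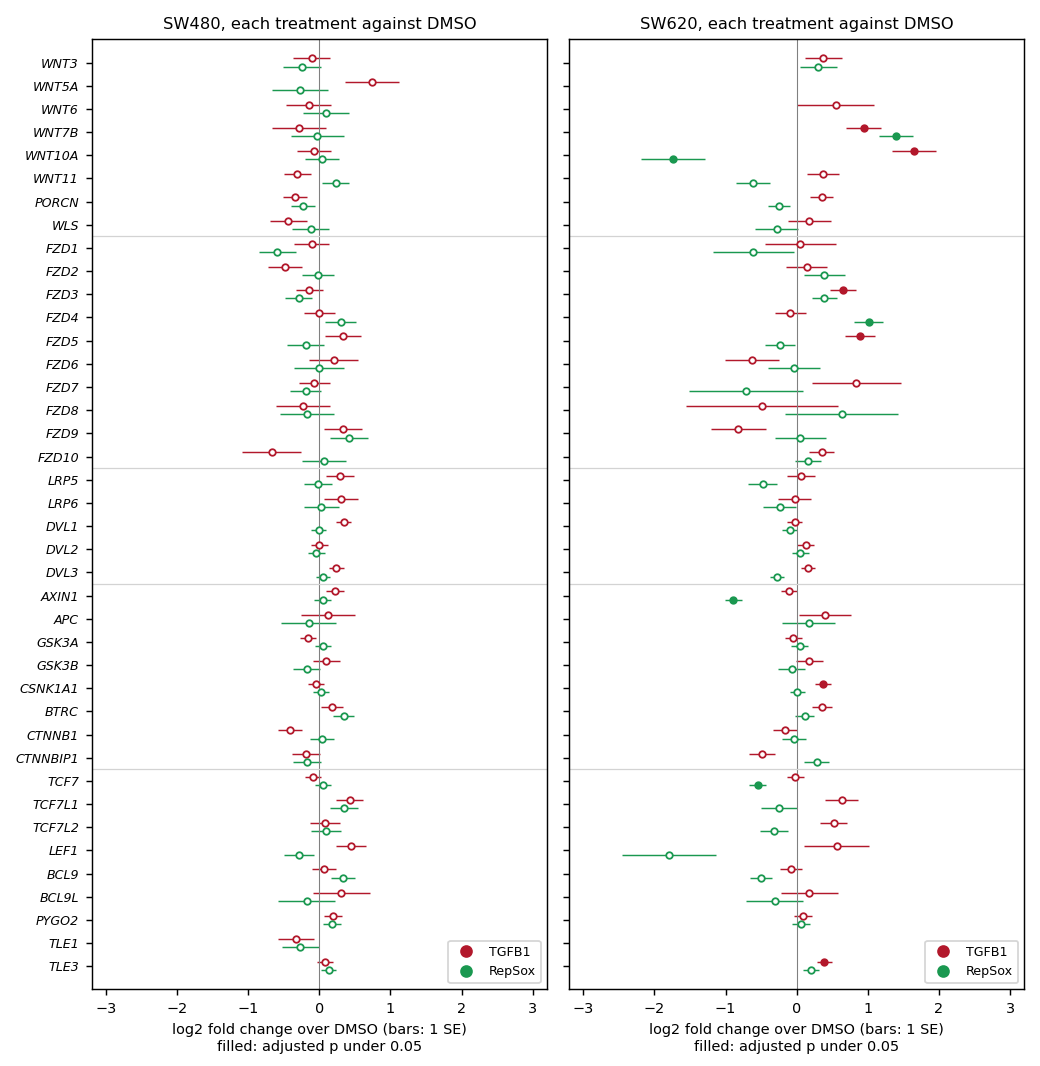
Log2 fold change of CPM over DMSO for TGFB1 (red) and RepSox (green) by class, in SW480 (left) and SW620 (right), with vector and Tet2CD cells averaged, bars of 1 SE and filled symbols where the adjusted p was under 0.05. WNT5A and TLE1 in SW620, and WNT6 under RepSox in SW620, are omitted for few counts. All filled symbols are in SW620, from WNT10A at 1.65 under TGFB1 to WNT10A at -1.74 under RepSox.

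TGFB1 and RepSox were also compared directly. In SW620, 16 of 40 members passed, 14 higher under TGFB1 (background 14.5%) and 2 lower (background 14.5%), where 29.1% of all genes passed, and the median over the 40 members was 0.31 against 0.02 over all genes. In vector cells alone 8 members passed, and without the 3 SW480 Tet2CD libraries numbered 1 the count was 18, where 47.6% of all genes passed. The share of all genes that passed in vector cells alone is not given. The ligands WNT10A (log2 fold change 3.39, SE 0.39, edgeR adjusted p = 8.61e-06) and WNT11 (0.98, SE 0.23) were higher under TGFB1. WNT6 was at 56 counts under TGFB1 and 1 under RepSox (ratio 54.4, 95% exact binomial interval 9.37 to 2190), and FZD5 was higher as well (1.13, SE 0.21, edgeR adjusted p = 0.000741). AXIN1 was higher under TGFB1 (0.78, SE 0.12, edgeR adjusted p = 0.000101), as was DVL3 (0.43, SE 0.1). All 3 TCF factors were higher, with values of 0.52 for TCF7 (SE 0.12), 0.84 for TCF7L2 (SE 0.2) and 0.89 for TCF7L1 (SE 0.23).

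LEF1 was low in SW620 under every treatment, with 1.22, 1.57, 2.44 and 2.37 CPM under TGFB1 and 0.257, 0.355, 0.497 and 0.251 CPM under RepSox (log2 fold change 2.34, SE 0.59, edgeR adjusted p = 0.00634). All 4 TGFB1 libraries were above all 4 RepSox libraries, which adds no support to a call made on them. All were below the lowest SW480 library (27.9 CPM). The members lower under TGFB1 were FZD4 (-1.1, SE 0.21, edgeR adjusted p = 0.000772) and CTNNBIP1, with 55.8, 44.1, 64.4 and 39.7 CPM under TGFB1 against 83.3, 95.8, 86.7 and 81.0 CPM under RepSox (-0.76, SE 0.18, edgeR adjusted p = 0.00499). PORCN, CSNK1A1, BCL9 and LRP5 also passed, with values from 0.36 to 0.6, and CTNNB1 did not (-0.12, SE 0.17). In SW480 0 members passed with edgeR, where 2.05% of all genes passed with edgeR. DESeq2 called 2 members (DVL1 and LEF1), and its share over all genes is not given. With edgeR, 5 members had an unadjusted p under 0.05, as did 2460 of the 15302 genes tested. The nearest by edgeR was LEF1 (0.73, SE 0.21, adjusted p = 0.0877). CTNNB1 had a value of -0.45 there (SE 0.17, edgeR adjusted p = 0.209), and -0.47 (SE 0.08, edgeR adjusted p = 0.000959) without the 3 SW480 Tet2CD libraries numbered 1, when 6 members passed and 12.1% of all genes did.

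**Figure D5:**
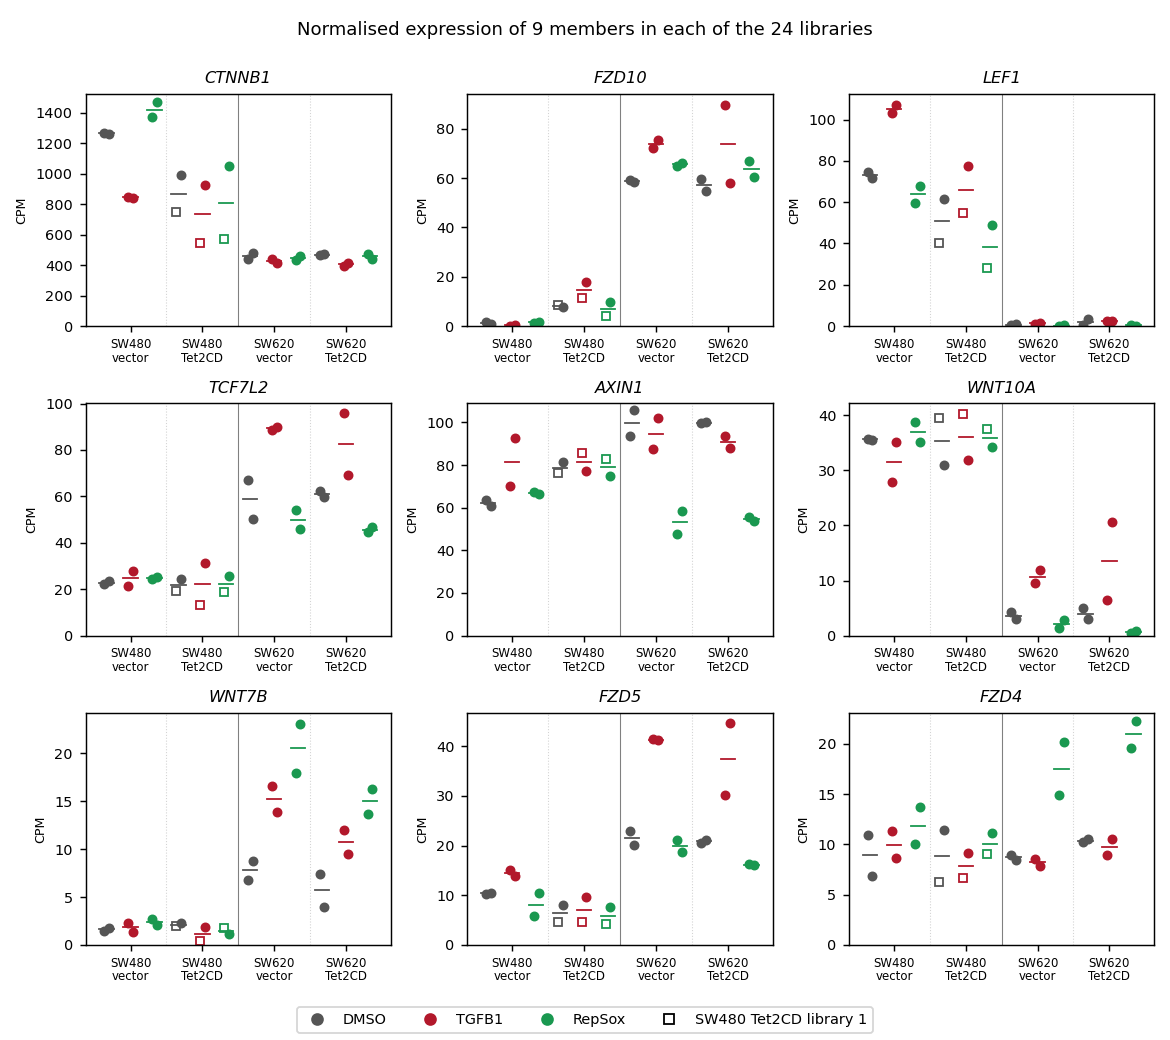
Normalised expression in CPM on linear axes for 9 members in each of the 24 libraries, by line and construct on the x axis and by treatment in colour, with short lines at the group means and open squares for the SW480 Tet2CD libraries numbered 1. AXIN1 lies between 47.8 and 58.5 CPM in the 4 SW620 RepSox libraries and above that in all others, and LEF1 is at most 3.26 CPM in all SW620 libraries.

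Whether the treatment effects differed between the lines was tested directly. For TGFB1, 1 of 40 members passed, where 2.07% of all genes passed. It was WNT10A, whose log2 fold change was -0.08 (SE 0.24) in SW480 and 1.65 (SE 0.31) in SW620 (difference -1.72, SE 0.4, edgeR adjusted p = 0.0309). For RepSox, 1 of 40 members passed, where 1.03% of all genes passed. It was AXIN1, with 0.05 (SE 0.12) in SW480 and -0.89 (SE 0.12) in SW620 (difference 0.94, SE 0.16, edgeR adjusted p = 0.00888). The AXIN1 call was kept whichever of the 16 libraries was left out, and the WNT10A call in 4 of 16. For TGFB1, FZD6 (0.94) and FZD3 (-0.79) passed beside WNT10A without the 3 SW480 Tet2CD libraries numbered 1, where 8.73% of all genes passed. Without the 3 SW480 Tet2CD libraries numbered 1, WNT6 (5.13), TCF7 (0.7), BCL9 (0.86) and LRP5 (0.62) passed beside AXIN1 for RepSox, where 3.78% of all genes passed. The values of CTNNB1 were -0.26 (SE 0.25) for TGFB1 and 0.08 (SE 0.25) for RepSox.

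Other genes of the pathway were counted by list, and 92 of the 113 listed genes were tested. Between the lines in vector cells 31 were higher in SW480 (33.7%, background 17.8%) and 19 lower (20.7%, background 16.8%). Of 6 tested other WNT ligands, 4 were higher in SW480 and 0 lower, including WNT7A (12.5 CPM in SW480 and 0 in SW620). Of 14 tested feedback and secreted inhibitors, 9 were higher, such as APCDD1, a membrane inhibitor (log2 fold change 5.03, SE 0.19), and 4 were lower, such as NKD1, which binds Dishevelled, with a mean of 586 CPM in SW480 and 4000 CPM in SW620 (-2.77, SE 0.24). Of 17 tested classical target genes, 6 were higher, among them CCND1 (3.44, SE 0.18) and CD44 (4.31, SE 0.24), and 4 were lower, among them EPHB2 (-2.45, SE 0.15) and the stem cell receptor LGR5 (0.128 against 31.2 CPM). Of 14 tested R-spondin, LGR and non-canonical receptor genes, 5 were higher, such as CELSR1 (2.25, SE 0.41), and 1 was lower (GPC4, -1.08). The other cytoplasmic components had 3 higher and 6 lower of 22, and the other nuclear components 4 and 4 of 19, with NLK, a kinase that acts on TCF/LEF factors, higher (3.06) and SOX4 lower (-3.4). Between the lines in Tet2CD cells, 30 of the 92 were higher in SW480 (32.6%, background 24.0%) and 30 lower (32.6%, background 22.7%).

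Under Tet2CD in SW480, 5 of the 92 rose (5.43%, background 4.19%) and 4 fell (4.35%, background 2.57%), and DKK3, of the Dickkopf family of secreted proteins, was among those that rose (log2 fold change 2.21, SE 0.25, edgeR adjusted p = 7.45e-05). In SW620 0 passed with edgeR, and 4 had an unadjusted p under 0.05, as did 416 of the 15302 genes tested. In SW620, TGFB1 raised 6 (6.52%, background 8.31%) and lowered 12 of the 92 (13.0%, background 7.27%), and RepSox raised 5 (5.43%, background 2.01%) and lowered 8 (8.7%, background 2.68%). NOTUM, a secreted enzyme that inactivates WNT proteins by removing their lipid, was lower than DMSO under both, from 746 CPM to 383 CPM under TGFB1 (-0.96, SE 0.13) and to 398 CPM under RepSox (-0.9, SE 0.13). CCND1 was lower under TGFB1 (-0.57, SE 0.12) and higher under RepSox (0.5, SE 0.11), and LGR5 was lower under RepSox (-1.42, SE 0.25). The LRP6 inhibitor DKK1 rose from 0.833 to 7.35 CPM under RepSox (3.0, SE 0.5, edgeR adjusted p = 0.00215). With TGFB1 compared directly with RepSox in SW620, 16 of the 92 were higher under TGFB1 (17.4%, background 14.5%). There 14 were lower (15.2%, background 14.5%), so the 92 did not share the direction of the members called in that comparison. In SW480, 1 of the 92 passed under TGFB1 (ENC1, -0.8, SE 0.15) and 0 under RepSox with edgeR, where 1.05% and 0.0% of all genes passed. Under RepSox 4 of the 92 had an unadjusted p under 0.05, as did 433 of the 15302 genes tested.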

How the data were processed

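RNA was extracted with TRIzol and sequenced by the authors on an Illumina NextSeq instrument after TruSeq v2 library preparation. Bowtie and RSEM are named in the submitters' processing notes, and the tables the authors deposited give an expected count, a TPM and an FPKM value per gene and library. The notes give mm10 as the genome, but the gene identifiers are human Ensembl ones, and positions were taken by identifier from GENCODE 29 (GRCh38). Trimming was with Trimmomatic per the study's methods, and whether counting used strand is stated in no source used here. The FPKM values were not used.

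Expected counts were rounded to whole numbers, filtered with filterByExpr by group, scaled by TMM and fitted with edgeR 4.0.16 (R 4.3.3) in 1 quasi-likelihood model of 24 libraries and 12 group means with 12 residual degrees of freedom. The model was tested on simulated data. The simulated libraries were independent with the same dispersion, so that test cannot speak to the shared deviations of the SW480 Tet2CD libraries. The 13 comparisons were adjusted by Benjamini-Hochberg over 15302 genes, and the common biological coefficient of variation was 21.3%. CPM values are TMM-normalised, except those of TET2, which were divided by total counts. At a median depth of 3653712 counts, genes of few counts carry wide intervals. Such intervals, and the floor of 3 counts, reflect counting error alone.

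Named in each comparison were the members past the threshold, or the 10 of smallest p where more than 10 rose or fell, and CTNNB1 always. The other members of the line comparison were added after their values were seen. The members and lists were chosen with earlier results of these data known. Alternatives were RLE scaling, no filter, DESeq2 1.42.0, the library number as a block, 1 line or construct alone, averaging over treatments, TPM and leaving out libraries. The shares of all genes that passed a test are from edgeR, and none is given for the DESeq2 counts. The library numbers did not pair the samples over all groups, since 12 of 66 pairs of groups had a correlation of deviations over 0.1 (range -0.279 to 0.758). Among the 3 SW480 Tet2CD groups the same-numbered libraries deviated together (0.655 to 0.758), so the number as a block within those groups was added as an alternative after seeing the data. No 2 libraries of a group agreed within counting noise (chi-square per degree of freedom 1.62 to 39.4).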

Additional observations from a re-analysis of the deposited data

Results flagged for a closer look

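The effect of Tet2CD on FZD10 differed between the lines, with a difference of 2.57 on the log2 scale (SE 0.5) by the test of the difference itself in edgeR. The effect of TGFB1 on WNT10A differed between the lines by -1.72 (SE 0.4), SW480 minus SW620. The effect of RepSox on AXIN1 differed between the lines by 0.94 (SE 0.16), SW480 minus SW620. With 1 library left out at a time, the FZD10 call was kept in 0 of 8 exclusions. The WNT10A call was kept in 4 of 16 and the AXIN1 call in 16 of 16.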

How the results depend on the processing

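Leaving out 1 library at a time, the number of members called ranged from 26 to 28 between the lines in vector cells and 22 to 25 in Tet2CD cells, 1 to 3 for Tet2CD in SW480, 0 to 0 in SW620 and 0 to 0 for their difference, 0 to 0 for TGFB1 in SW480 and 3 to 5 in SW620, 0 to 0 for RepSox in SW480 and 3 to 6 in SW620, 0 to 7 for TGFB1 against RepSox in SW480 and 12 to 14 in SW620, and 0 to 1 and 1 to 2 for the line differences of TGFB1 and RepSox. TGFB1 against RepSox in SW480 reached 7 without Tet2CD RepSox library 2, 3 without Tet2CD TGFB1 library 1 and 1 without Tet2CD RepSox library 1. Without the 3 SW480 Tet2CD libraries numbered 1 the counts were 8 for Tet2CD in SW480 and 2 for its line difference, 3 and 14 for TGFB1 in SW480 and SW620, 10 for RepSox in SW620, 6 for TGFB1 against RepSox in SW480, and 3 and 5 for the line differences of TGFB1 and RepSox. Averaged over treatments, where the SW480 Tet2CD libraries were not independent, Tet2CD gave 26 in SW480 and 8 for the line difference. With no filter the counts were 8 and 3 for these, 1 for TGFB1 in SW480, 2 for TGFB1 against RepSox in SW480 and 2 for the RepSox line difference. With 1 line alone they were 0 for Tet2CD in SW480, 13 for TGFB1 and 11 for RepSox in SW620. In vector cells alone they were 0 for TGFB1, 1 for RepSox and 8 for TGFB1 against RepSox in SW620, and 0 for both line differences. Where no share of all genes is given above, the counts of this paragraph cannot be told apart from a change over all genes. DESeq2 gave 2 for the Tet2CD line difference, 1 for TGFB1 and 2 for TGFB1 against RepSox in SW480, and 2 and 4 for the line differences of TGFB1 and RepSox. With TPM in place of CPM, 9 members stayed above in SW480. With the library number as a replicate block, TGFB1 against RepSox gave 1 in SW480 and the RepSox line difference 2, and the other counts stayed within 1.5 times. With that block within the SW480 Tet2CD groups only, chosen after seeing the data, the counts were 18 for Tet2CD in SW480 and 8 for its line difference, 4 and 14 for TGFB1 in SW480 and SW620, 10 for RepSox in SW620, 6 for TGFB1 against RepSox in SW480, and 5 for each line difference of the treatments. CTNNB1 then passed for Tet2CD in SW480 (-0.55), for its line difference (-0.58), and in SW480 for TGFB1 (-0.43) and TGFB1 against RepSox (-0.44). CTNNB1 changed sign for Tet2CD in SW620 when averaged (-0.01) or without vector DMSO library 1 (-0.03). It also did so for RepSox in SW480 without Tet2CD DMSO library 1 (-0.06) or Tet2CD RepSox library 2 (-0.24), and for the RepSox line difference (-0.02 and -0.19). Over all single-library exclusions its value reached 0.09, 0.22 and 0.27 in these 3 comparisons, and the cause was not tested. Of 73 named results past the threshold, 52 stayed past it whichever library was left out.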
